A study of Caenorhabditis elegans with 12 samples.

Results

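The 8 genes described here are hif-1, egl-9, vhl-1, rhy-1, phy-2, nhr-57, cysl-2 and sqrd-1 of Caenorhabditis elegans, genes of the hypoxia response, out of 46934 genes in the deposited table. They were chosen by symbol, with earlier results of these data known: several of them were already seen to be high in 1 wild-type library, N2 B. All 8 had an identifier in the table and all 8 had enough counts to be tested. The lowest count of any of them in any library was 120, for phy-2 in PHX2193 A.

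RNA was sequenced from whole L1 larvae held for 48 h without food in M9 buffer, where larvae that hatch with nothing to eat stop developing. Eggs had been freed by hypochlorite treatment. There were 3 strains with 4 biological replicates each, lettered A to D: N2, the wild type, and 2 strains with an allele of flp-11, syb1445 in HBR2340 and syb2193 in PHX2193. FLP-11 is a set of FMRFamide-like peptides released by RIS, a neuron that is active in sleep, and the labels leave unsaid what the alleles do to it. No group was labelled as exposed to low oxygen, to hydrogen sulfide or to any drug. The larvae were sequenced whole, so fewer cells of a type and less RNA per cell cannot be told apart.

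In worms as in mammals, the transcription factor HIF-1 is made at all times and is destroyed while oxygen is plentiful. EGL-9, a prolyl hydroxylase, uses oxygen to mark HIF-1, and VHL-1, the recognition part of an E3 ubiquitin ligase, binds the marked protein and sends it for degradation. RHY-1, a membrane protein, also restrains HIF-1, and CYSL-1, a relative of cysteine synthases, binds EGL-9 and blocks it when hydrogen sulfide builds up. HIF-1 raises the transcription of genes for collagen hydroxylation, sulfide and cyanide detoxification and metabolism, and also that of egl-9 and rhy-1, which closes a feedback loop.

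The libraries held 23068345 to 34832403 counts. Levels are in CPM, a gene's counts scaled to a common library size, after TMM, a method that sets the factor of each library from the bulk of its genes. N2 B stood apart: its TMM factor was 0.717 where the other 11 lay between 0.945 and 1.184, and 13893 genes had 10 or more counts there, against 14847 to 16082 in the others. Ribosomal RNA took 5.85% of its counts, within the range of 0.4998% to 8.72% over all libraries. Of body wall muscle, intestine, neuron, pharynx and epidermis markers, 69 of 71 had enough counts to be tested, and the adult yolk and sperm markers summed to at most 16.53 CPM.

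The factor itself, hif-1, lies at V:20780407-20785260 on the plus strand of WBcel235. It read 377, 455, 357 and 269 CPM in the N2 libraries A to D. In HBR2340 it was 312, 302, 295 and 321 CPM. The PHX2193 libraries read 393, 389.6, 367 and 315 CPM. All 3 strains overlapped, and N2 B was the highest of the 12 libraries, 61.2 CPM above PHX2193 A. Means were 364 ± 76.4 CPM (SD, n = 4) in N2, 307 ± 11.4 in HBR2340 and 366 ± 36.1 in PHX2193.

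vhl-1, the degradation adaptor, at X:11307356-11308518 on the plus strand, varied least of the 8 within N2 and within PHX2193. It stood at 12.9, 14.9, 14.4 and 14.6 CPM in N2 A to D and between 12.25 and 13.31 CPM in the 8 other libraries. The coefficient of variation within a strain was 6.26% in N2, 3.81% in HBR2340 and 2.84% in PHX2193. N2 B was again the highest, but by 0.241 CPM over N2 D.

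The oxygen sensor egl-9, at V:10468517-10476915 on the plus strand, behaved otherwise. In N2 A, C and D it read 54.2, 58.3 and 47.7 CPM, and in N2 B it read 1181 CPM. HBR2340 gave 95.9, 72.5, 90.4 and 70.9 CPM in A to D. PHX2193 gave 63.7, 56.6, 112 and 47.9 CPM. N2 B lay an order of magnitude above every other library, and PHX2193 C was the next highest of the 12. The N2 mean of 335 ± 564 CPM (SD, n = 4) was 53.4 ± 5.38 CPM without N2 B (n = 3).

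rhy-1, the other negative regulator, at II:9161379-9163448 on the plus strand, was a low gene that moved less. N2 A to D gave 8.12, 16.6, 7.35 and 7.49 CPM. HBR2340 gave 9.13, 6.94, 7.92 and 9.05 CPM, and PHX2193 gave 7.78, 7.64, 9.63 and 6.87 CPM. N2 B was again the highest and PHX2193 C the next, and the other libraries of all strains ran through each other. This gene shares 82 exonic bases with W07A12.8 on the other strand, and reads there could not be told apart if the counting ignored strand.

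Of the genes that HIF-1 controls, phy-2, at IV:12211097-12215987 on the minus strand, had the widest range. It encodes an alpha subunit of procollagen prolyl 4-hydroxylase, an enzyme that needs oxygen and iron to stabilise cuticle collagen. N2 A, C and D stood at 5.78, 5.90 and 5.15 CPM and N2 B at 663 CPM, which is 11671 counts against 133 to 215. HBR2340 read 12.96, 6.71, 5.77 and 6.17 CPM in A to D. PHX2193 read 5.05, 5.36, 35.7 and 4.19 CPM. One library stood high in each strain, N2 B, PHX2193 C and HBR2340 A in falling order, and the 9 others lay between 4.19 and 6.71 CPM.

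nhr-57, a nuclear receptor gene used as a readout of HIF-1 activity, lies at V:4131889-4135102 on the plus strand and shares 16 exonic bases with lgc-1. It stood at 17.4, 63.9, 16.21 and 13.7 CPM in N2 A to D. HBR2340 gave 24.8, 21.9, 21.3 and 21.8 CPM, and PHX2193 gave 15.4, 17.6, 22.7 and 13.9 CPM. Apart from N2 B, the 4 HBR2340 libraries lay above the N2 libraries, and PHX2193 C lay within the HBR2340 range.

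cysl-2, a cysteine synthase relative that handles cyanide, lies at II:14492874-14494451 on the minus strand and shares 36 exonic bases with vnut-1. It was at 33.1, 149.8, 24.6 and 18.7 CPM in N2 A to D. HBR2340 gave 39.2, 35.3, 24.0 and 30.2 CPM, and PHX2193 gave 20.7, 19.7, 22.5 and 14.5 CPM. Every PHX2193 library lay below every HBR2340 library, with 22.5 CPM in PHX2193 C next to 24.0 CPM in HBR2340 C.

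sqrd-1, the sulfide:quinone oxidoreductase that oxidises hydrogen sulfide in mitochondria, lies at IV:14219871-14224440 on the plus strand. It read 22.1, 189, 33.2 and 25.1 CPM in N2 A to D. HBR2340 read 43.1, 37.7, 46.5 and 38.6 CPM, and PHX2193 read 25.4, 22.8, 21.3 and 16.35 CPM. With N2 B set aside, the HBR2340 libraries were the 4 highest, and PHX2193 lay below HBR2340 with a gap of 12.31 CPM between the nearest libraries.

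**Figure D1:**
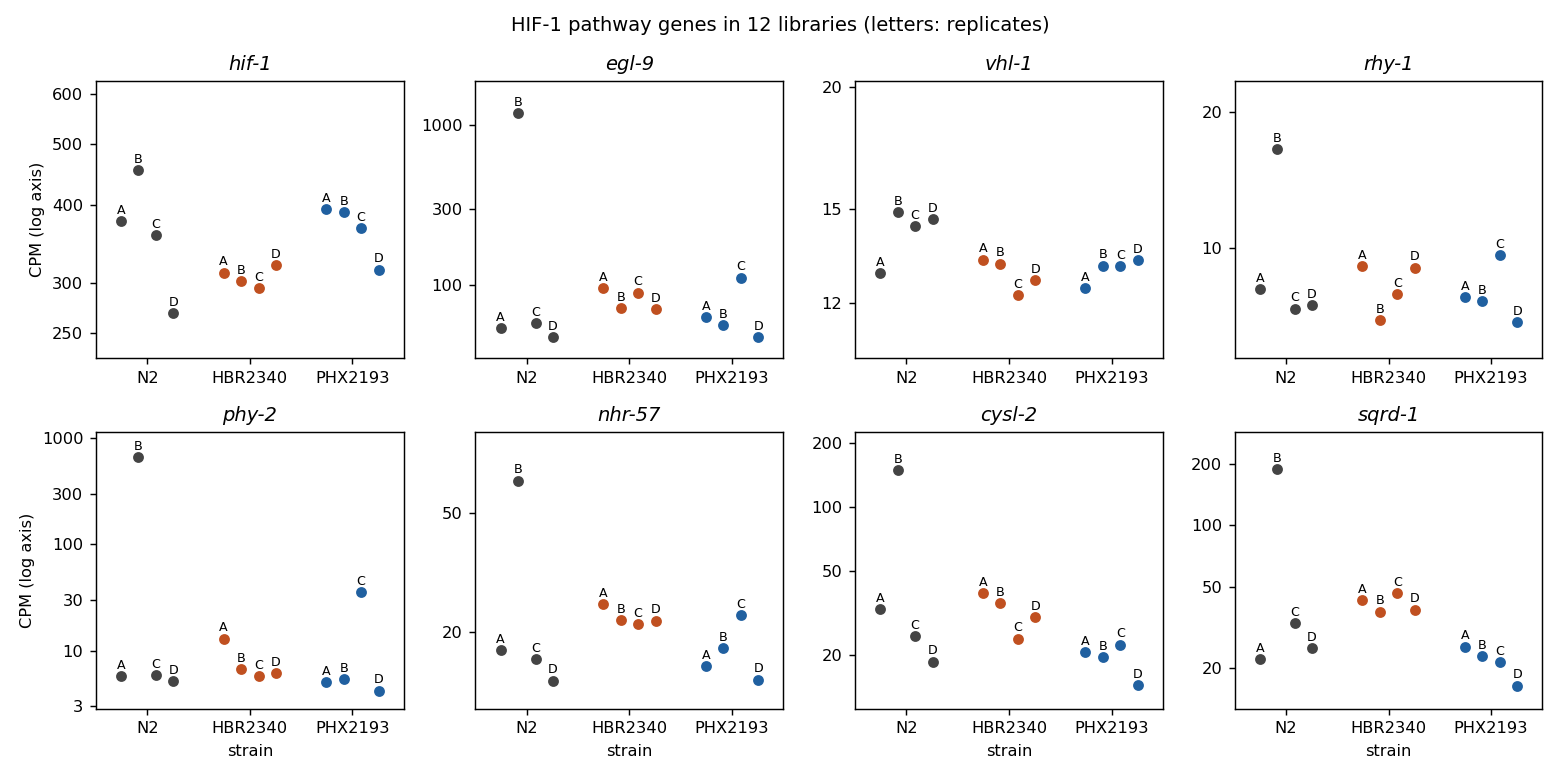
Level of each of the 8 genes in CPM after TMM scaling (log axis, a different range in each panel) by strain, with 1 point per library and its replicate letter. N2 B is the highest point in every panel, from 14.9 CPM for vhl-1 to 1181 CPM for egl-9, and PHX2193 C stands out for phy-2 at 35.7 CPM.

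Divided by exonic length, which allows levels of different genes to be compared, the order in N2 A, C and D was led by hif-1 at a mean of 113 CPM per kb. cysl-2 followed at 22.7 CPM per kb, then sqrd-1 at 16.12, egl-9 at 15.7, vhl-1 at 15.6, nhr-57 at 10.1, rhy-1 at 4.59 and phy-2, the lowest, at 3.23 CPM per kb. From cysl-2 to vhl-1, neighbours in this order overlapped over the 3 libraries, while hif-1 lay above them and nhr-57, rhy-1 and phy-2 each lay below without overlap. In N2 B the order was another: phy-2 led at 382 CPM per kb, egl-9 stood at 348, and hif-1 came next at 154 CPM per kb.

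Because the height of N2 B is what brought these genes together, its ratio to the mean of N2 A, C and D is given as a description without a test. The ratio was 117-fold for phy-2 (log2 6.87), rank 5 of 15908 tested genes, and 22.2-fold for egl-9 (log2 4.47), rank 28. It was 7.13-fold for sqrd-1, 6.03-fold for cysl-2, 4.05-fold for nhr-57 and 2.16-fold for rhy-1. hif-1 at 1.37-fold and vhl-1 at 1.07-fold stayed under 2-fold. So 6 of 8 genes were more than 2-fold higher, where 9.27% of all tested genes were, and rhy-1 was the nearest to that line on the inside and hif-1 on the outside. The median log2 ratio of the 8 was 2.31, and that of all tested genes was −0.12.

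The size of these ratios moved with the scaling of N2 B. Scaled by library totals alone, the median over all tested genes shifted to −0.67 and the ratio of rhy-1 fell to a log2 of 0.55, under 2-fold, while hif-1 went to −0.11 and vhl-1 to −0.47. With upper quartile factors rhy-1 stood at 0.96 and vhl-1 at −0.06. The other 5 genes stayed more than 2-fold higher under every scaling run, with nhr-57 the lowest of them at a log2 of 1.45 by library totals.

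**Figure D2:**
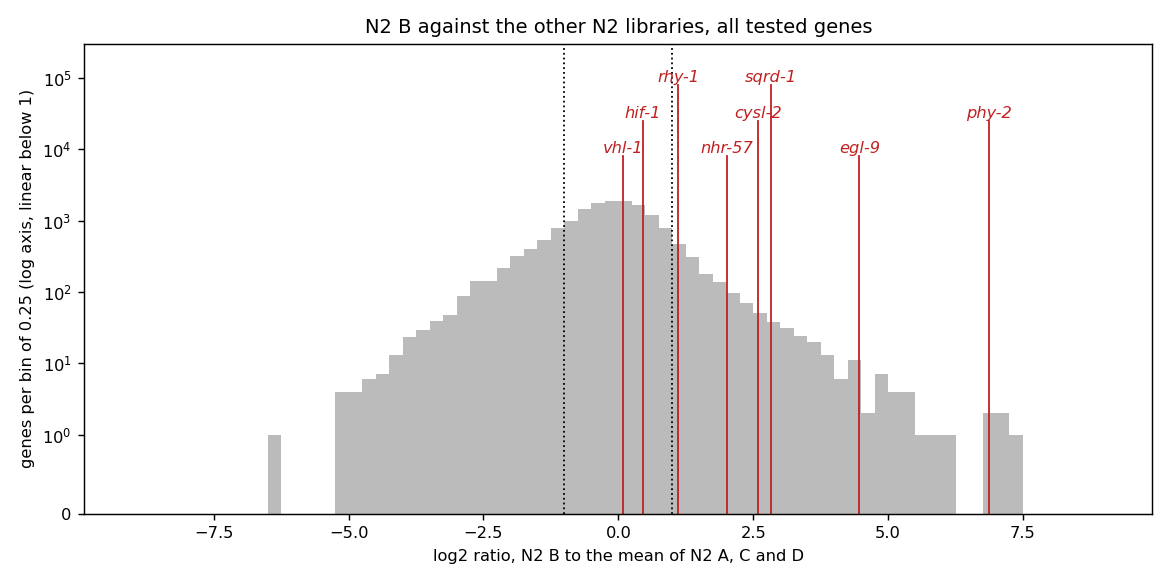
Histogram of the log2 ratio of N2 B to the mean of N2 A, C and D over 15908 tested genes (bars, genes per bin, log axis that is linear below 1), with the 8 genes as red lines and 2-fold as dotted lines. vhl-1 and hif-1 lie within the bulk at 0.09 and 0.46, rhy-1 at 1.11 on the 2-fold line, and egl-9 and phy-2 in the far upper tail at 4.47 and 6.87.

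The same measure within the mutant strains used libraries in which N2 B has no part. In PHX2193 C, phy-2 was 7.28-fold above the mean of PHX2193 A, B and D (rank 10 of 15908) and egl-9 was 2.01-fold above it (rank 239). These were 2 of the 8 genes, where 1.52% of all tested genes were more than 2-fold higher. egl-9 was barely past that line, at a log2 of 1.0053, and other scalings were not run for this count. nhr-57 followed at a log2 of 0.54, rhy-1 at 0.37 and cysl-2 at 0.32, and sqrd-1, hif-1 and vhl-1 lay within 0.02 of no difference. Ribosomal RNA took 8.05% of the counts of PHX2193 C and 0.4998% to 2.22% in the other PHX2193 libraries, and its part in these ratios was not tested.

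In HBR2340 A, phy-2 was 2.08-fold above the mean of HBR2340 B, C and D (rank 343), and it was the 1 gene of the 8 past 2-fold, where 2.42% of all tested genes were. cysl-2 stood at a log2 of 0.41 and egl-9 at 0.31, and the other 5 were at 0.20 or less. HBR2340 A was the highest of its strain for 6 of the 8 genes and PHX2193 C for 5 of 8. The lowest library was PHX2193 D for 7 of 8 genes and N2 D for 5 of 8, and these 2 libraries had the highest TMM factors, 1.184 and 1.144. Both stood apart in embryo and germ cell markers: N2 D was more than 2-fold above the rest of its strain for 9 of 11 embryo and oocyte markers and 7 of 10 germ cell markers, where 8.95% of all tested genes were. PHX2193 D was so for 8 of 11 and 8 of 10, where 4.85% of all tested genes were, and the part of this in the low values of the 8 genes was not tested.

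Of the 1474 genes more than 2-fold higher in N2 B and the 242 in PHX2193 C, 87 were shared, which is 5.902% of the first set and 35.95% of the second. N2 B shared 44 genes with the 385 of HBR2340 A, 2.985% and 11.43% of each. Of all tested genes, 9.27% were past 2-fold in N2 B, 1.52% in PHX2193 C and 2.42% in HBR2340 A. The overlap of N2 B with HBR2340 A was thus near the share over all genes. Among the 10 genes past 2-fold in all 3 libraries was phy-2, and another was F22B5.4, a gene of unknown function listed among the hypoxia genes for its induction by low oxygen. F22B5.4 stood at 17.4, 1673, 14.2 and 11.4 CPM in N2 A to D. HBR2340 had 19.9, 8.97, 10.03 and 5.28 CPM, and PHX2193 had 15.2, 22.4, 157 and 15.9 CPM. Its ratios were 118-fold in N2 B and a log2 of 3.15 in PHX2193 C and 1.34 in HBR2340 A, so the same library of each strain was high as for phy-2. Of 5 tested genes in the list of other hypoxia genes that holds it, fmo-2, a flavin monooxygenase gene, was the next in N2 B at a log2 ratio of 1.90, and it stood at 1.04 in HBR2340 A and −0.23 in PHX2193 C.

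**Figure D3:**
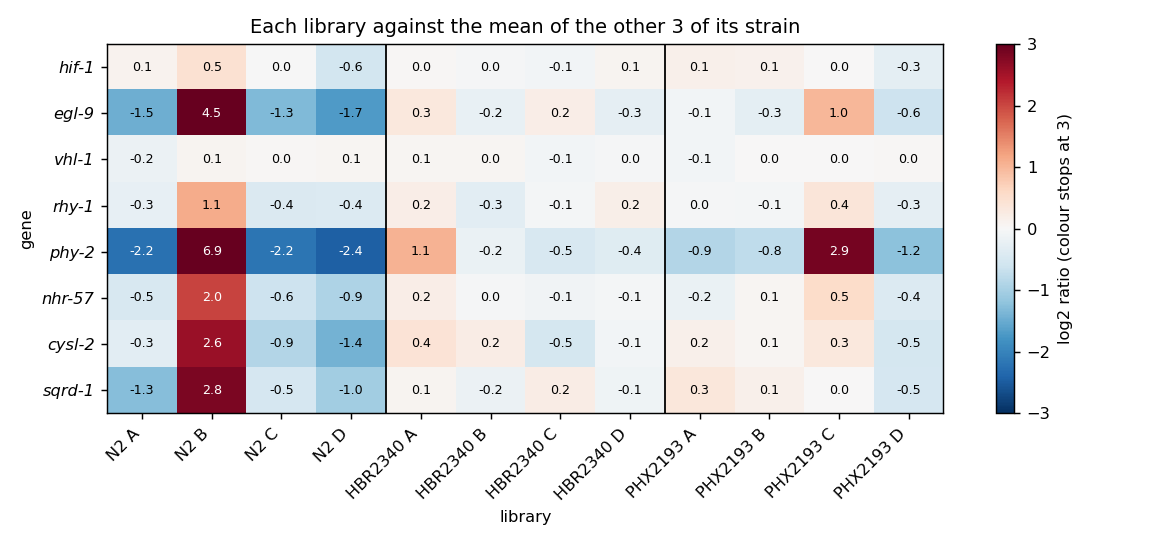
Log2 ratio of each library to the mean of the other 3 libraries of its strain for the 8 genes (colour and printed value, colour stops at 3). The N2 B column reaches 6.87 for phy-2, which also makes N2 A, C and D negative there, and PHX2193 C is at 2.86 for phy-2 and 1.01 for egl-9, while the hif-1 and vhl-1 entries of HBR2340 and PHX2193 lie between −0.28 and 0.15.

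The strain comparisons ask whether either flp-11 allele goes with another level of these genes. They were tested with edgeR's quasi-likelihood test, with p-values adjusted by Benjamini-Hochberg over all genes tested, and a gene is called at an adjusted p under 0.05. Of the 8 genes 0 were called in HBR2340 against N2, where 7.37% of all genes tested were, and 0 in PHX2193 against N2, where 0.365% were. In PHX2193 against HBR2340, a comparison in which N2 B is in neither group, 0 of 8 were called and 19.5% of all genes were. At an unadjusted edgeR p under 0.05 there were 1, 4 and 0 genes in these comparisons, and 3, 0 and 4 once N2 B was left out. The share of all genes at that level was not counted, so these counts are a description. limma-voom called 0 in each, and so did DESeq2, which gave no adjusted p for 3 of them, egl-9, phy-2 and sqrd-1.

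With all 12 libraries the fold changes against N2 were wide. In HBR2340 against N2 the log2 fold change was −4.42 ± 1.59 (SE, adjusted p = 0.127) for phy-2, −2.02 ± 0.93 (0.239) for egl-9 and −0.69 ± 0.57 (0.554) for sqrd-1. In PHX2193 against N2 it was −3.76 ± 1.54 (0.378) for phy-2, −2.26 ± 0.94 (0.386) for egl-9 and −1.64 ± 0.59 (0.296) for sqrd-1. hif-1 stood at −0.25 ± 0.15 (0.377) and 0.01 ± 0.15 (0.992), and vhl-1 at −0.14 ± 0.10 (0.441) and −0.13 ± 0.10 (0.663). Both comparisons share the N2 libraries, so N2 B enters both. The median log2 fold change of the 8 genes was −0.50 in the first and −1.11 in the second, against −0.04 and −0.01 for all genes tested.

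These negative values rested largely on N2 B. Without it, a choice made with its values known, 6 of the 8 genes changed sign in HBR2340 against N2 and 4 in PHX2193 against N2. The median of the 8 went to 0.40 in HBR2340 and 0.09 in PHX2193, with all genes tested at −0.04 and −0.01. The median changes with the members themselves, which were chosen from N2 B, and so is a description.

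HBR2340 then stood above N2 for 2 of the 8 genes, a count near the 17.7% of all genes tested that were called in either direction. The library left out is the one that chose the genes, so these calls are a description too. sqrd-1 rose by a log2 of 0.61 ± 0.16 (SE, edgeR adjusted p = 0.0166), from 26.8 ± 5.72 CPM in N2 A, C and D (SD, n = 3) to 41.5 ± 4.09 in HBR2340 (n = 4). nhr-57 rose by 0.49 ± 0.15 (0.0405), from 15.8 ± 1.87 to 22.4 ± 1.59 CPM. All 4 HBR2340 libraries lay above the 3 N2 libraries for both. They also did for egl-9, at 0.61 ± 0.25, where edgeR made no call (0.117) and DESeq2 did (0.0408). The share of all genes that separate strains in this way was not counted, for these or for the other separations given.

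The others had no call in HBR2340 against N2 without N2 B, with cysl-2 at 0.33 ± 0.21 (0.327), phy-2 at 0.48 ± 0.75 (0.702), rhy-1 at 0.10 ± 0.14 (0.688), hif-1 at −0.14 ± 0.12 (0.467) and vhl-1 at −0.14 ± 0.09 (0.326). Leaving out PHX2193 C as well, egl-9 was called too (0.61, 0.00877). The call of nhr-57 ended when any HBR2340 library, any remaining N2 library or PHX2193 B was also left out (edgeR adjusted p of 0.0563 to 0.126). It ended with upper quartile factors too (0.0522). That of sqrd-1 ended without N2 A (0.0823) or N2 D (0.0545).

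PHX2193 against N2 A, C and D gave no call among the 8 genes by edgeR (0 of 8 called, 0 at an unadjusted p under 0.05, 0 by DESeq2 or limma-voom, and 1.4% of all genes tested called). DESeq2 gave no adjusted p for 1 of the 8 here. The log2 fold change was −0.33 ± 0.15 (0.397) for sqrd-1, −0.40 ± 0.21 (0.481) for cysl-2, 0.14 ± 0.15 (0.836) for nhr-57 and 0.39 ± 0.25 (0.604) for egl-9. For phy-2 it was 1.16 ± 0.75 (0.619), with 1 library, PHX2193 C, above the rest: the strain mean was 12.57 ± 15.41 CPM (SD, n = 4) with it and 4.87 ± 0.604 CPM without it (n = 3).

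Between the mutant strains the differences had the same size with N2 B or without it, but another error, because all libraries share 1 estimate of the spread. For sqrd-1 the log2 fold change of PHX2193 against HBR2340 was −0.95 ± 0.58 (adjusted p = 0.298) with all 12 libraries and −0.94 ± 0.14 (3.02e-04) without N2 B. For cysl-2 it was −0.74 ± 0.54 (0.402) and −0.73 ± 0.20 (0.0139). Without N2 B these 2 of 8 genes fell in PHX2193 relative to HBR2340, where 32.9% of all genes tested were called. Means were 21.4 ± 3.79 CPM in PHX2193 and 41.5 ± 4.09 in HBR2340 for sqrd-1, and 19.3 ± 3.44 and 32.2 ± 6.61 CPM for cysl-2 (SD, n = 4 each). Both calls held under every alternative run without N2 B, with adjusted p of 1.56e-08 to 0.00133 for sqrd-1 and 0.00137 to 0.0391 for cysl-2. The comparison shares the HBR2340 libraries with that of HBR2340 against N2, so the higher sqrd-1 of HBR2340 enters both.

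A fit of these 8 libraries alone, with no N2 library at all, called 3 of the 8 genes, where it called 34.3% of all genes. They were sqrd-1 at −0.94 ± 0.12 (edgeR adjusted p = 1.88e-04), cysl-2 at −0.72 ± 0.17 (0.00736) and hif-1 at 0.27 ± 0.09 (0.0381). The hif-1 value without N2 B was 0.26 ± 0.11 (0.0841), not called. nhr-57 stood at −0.36 ± 0.14 (0.0664) without N2 B, egl-9 at −0.22 ± 0.23 (0.491), phy-2 at 0.68 ± 0.68 (0.488), and rhy-1 and vhl-1 at −0.04 ± 0.13 and 0.03 ± 0.08. Leaving out PHX2193 C moved 3 of these values. Without it, and with N2 B in the fit, phy-2 turned to −0.69. Without both libraries egl-9 was called lower in PHX2193 at −0.55 (edgeR adjusted p = 0.00900), and so was nhr-57 at −0.51 (0.00535), which made 4 of the 8 genes called. In this comparison 32.9% of all genes tested were called without N2 B, and 4472 to 5729 genes when 1 more library was left out. With PHX2193 C kept and N2 B left out, nhr-57 was called by limma-voom (0.0462) and by edgeR with a replicate block (0.0453).

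**Figure D4:**
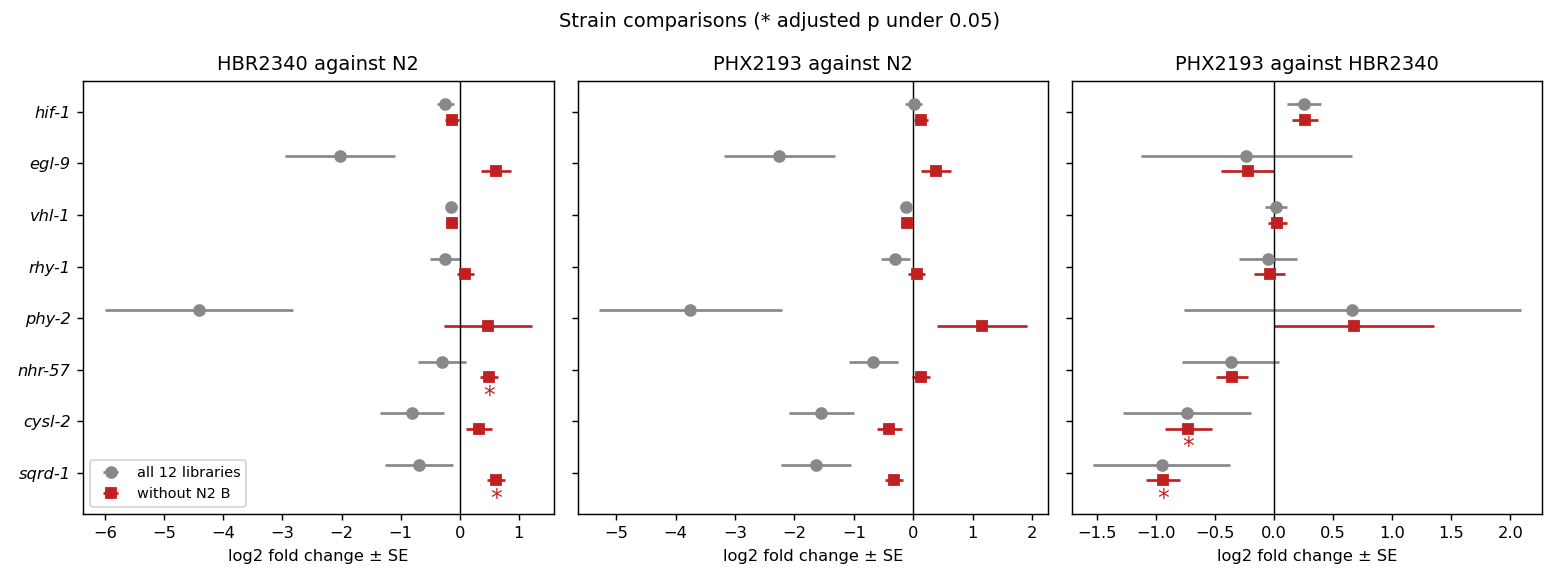
Log2 fold change with its standard error for the 8 genes in the 3 strain comparisons, with all 12 libraries (grey circles) and without N2 B (red squares), where a star marks an edgeR adjusted p under 0.05; each panel has its own range. Against N2, egl-9 and phy-2 move from −2.02 and −4.42 to 0.61 and 0.48 in HBR2340, while between the mutant strains sqrd-1 stays at −0.95 and −0.94 and its standard error goes from 0.58 to 0.14.

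Body wall muscle markers moved in the same comparisons. Of 15 tested, 11 were called higher in HBR2340 than in N2, where 7.37% of all genes were called in either direction. In PHX2193, 12 were called lower than in HBR2340, where 19.5% of all genes were called in either direction. Their summed level was 9559 to 16890 CPM in N2, 22250 to 23600 in HBR2340 and 5961 to 10200 in PHX2193, with none of them at 0. The part of this difference in the values of sqrd-1, nhr-57 and cysl-2 was not tested. Pan-neuronal markers had 0 of 19 called in HBR2340 against N2 and 1 lower in PHX2193 against HBR2340, beside the same 7.37% and 19.5% of all genes.

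The other genes of the pathway come from lists drawn up with the first results known. Of 7 partners of HIF-1 and parts of the VHL-1 ligase, 0 were called in any of the 3 comparisons with all 12 libraries, and again 0 without N2 B. Of all genes, 7.37% were called in HBR2340 against N2, 0.365% in PHX2193 against N2 and 19.5% in PHX2193 against HBR2340. Without N2 B these shares were 17.7%, 1.4% and 32.9%. In N2 B cysl-1, the sulfide-responsive inhibitor of EGL-9, was 2.10-fold above the other N2 libraries. cul-2, the scaffold of the ligase, was 1.72-fold above them and aha-1, the partner that HIF-1 binds DNA with, 1.47-fold.

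Sulfide and cysteine metabolism, the process that sqrd-1 and cysl-2 belong to, had 15 of 16 listed genes tested. In HBR2340 against N2, 0 were called higher and 2 lower, and in PHX2193 against HBR2340, 3 were called higher and 1 lower. That is 2 of 15 genes in the first comparison, where 7.37% of all genes were called, and 4 of 15 in the second, where 19.5% were. The median log2 fold change of the list was −0.13 in the first and −0.10 in the second, close to those of all genes. In N2 B, 5 of 15 were more than 2-fold higher, where 9.27% of all tested genes were, led by semo-1, a methanethiol oxidase gene, at a log2 ratio of 2.83, and gst-19 at 2.21. In the other direction 1 of 15 was more than 2-fold lower, mpst-7 at −1.83, where 17.7% of all tested genes were.

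Of the called genes of that list, cth-2, a cystathionine gamma-lyase gene whose product makes cysteine and can release hydrogen sulfide, stood at 190, 246, 168 and 148 CPM in N2 A to D. HBR2340 had 113, 109.5, 80.5 and 105 CPM, and PHX2193 had 174, 186, 193 and 180.3 CPM. All HBR2340 libraries were below all others. It fell by 0.88 ± 0.16 on the log2 scale in HBR2340 against N2 (SE, edgeR adjusted p = 0.00495) and stood 0.85 ± 0.16 higher in PHX2193 than in HBR2340 (0.00231). cbs-1, for cystathionine beta-synthase in the step before, moved likewise, by −0.95 ± 0.26 (0.0432) and 1.03 ± 0.26 (0.0138). Its first call ended in 12 alternatives, among them limma-voom (0.0536) and leaving out any HBR2340 library (0.0826 to 0.109).

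cdo-1, for cysteine dioxygenase, which burns cysteine and which HIF-1 can induce, read 34.1, 32.3, 37.3 and 54.9 CPM in N2 A to D. HBR2340 had 51.1, 52.5, 49.6 and 50.7 CPM, and PHX2193 had 29.3, 24.7, 14.5 and 27.6 CPM. PHX2193 lay below HBR2340 in every library, by a log2 of −1.09 ± 0.21 (SE, edgeR adjusted p = 0.00283), and N2 B was the lowest N2 library. cdo-1 was thus lower in PHX2193 than in HBR2340 as sqrd-1 and cysl-2 were, while it was not high in N2 B as they were.

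ethe-1, named after its values were seen, encodes the mitochondrial persulfide dioxygenase that acts directly after SQRD-1. It stood at 11.1, 33.3, 12.2 and 11.4 CPM in N2 A to D and HBR2340 at 20.98, 17.6, 19.01 and 17.3 CPM, with PHX2193 at 10.1, 11.1, 14.1 and 9.99 CPM. N2 B was the highest library, and HBR2340 lay above PHX2193 and above N2 A, C and D without overlap. With all 12 libraries it was not called (0.15 ± 0.31, 0.840 in HBR2340 against N2, and −0.72 ± 0.31, 0.128 in PHX2193 against HBR2340). Without N2 B it was 0.68 ± 0.13 (0.00368) and −0.71 ± 0.12 (5.80e-04), the order of sqrd-1. Genes outside this process had that order too, such as the iron transporter gene smf-1 at 0.61 (edgeR adjusted p = 0.0126) and −0.74 (9.96e-04). Of the 15 tested genes of the sulfide list, 1 was called higher and 3 lower in HBR2340 against N2 without N2 B. In PHX2193 against HBR2340, 3 were higher and 3 lower. Of all genes tested, 17.7% and 32.9% were called in these fits.

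**Figure D5:**
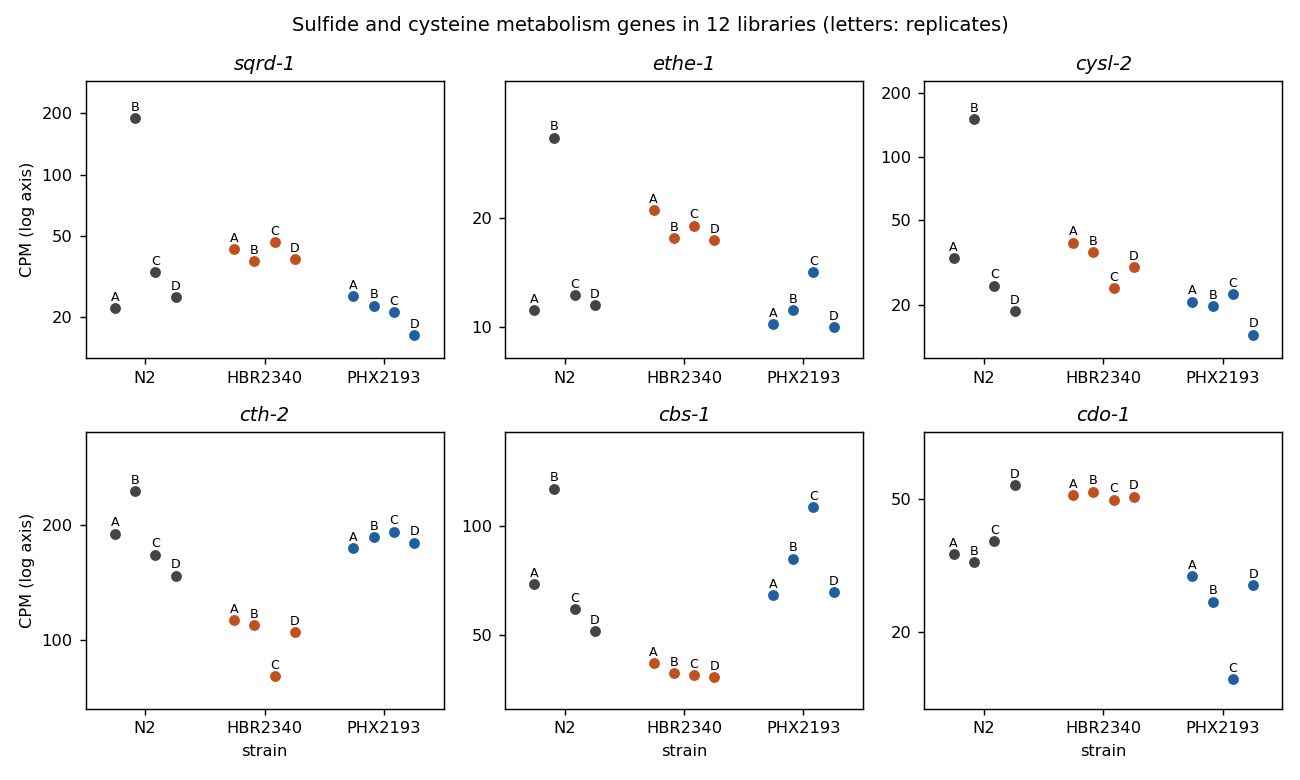
Level of 6 genes of sulfide and cysteine metabolism in CPM after TMM scaling (log axis, a different range in each panel) by strain, with 1 point per library and its replicate letter. sqrd-1 and ethe-1 are higher in HBR2340 than in PHX2193 and highest in N2 B, cth-2 and cbs-1 are lowest in HBR2340, and cdo-1 is lowest in PHX2193 C at 14.5 CPM.

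phy-2 stands with a list of collagen genes that holds other hydroxylation enzymes, the type IV collagen genes emb-9 and let-2 and the dual oxidase gene bli-3, of which 7 of 8 were tested. In N2 B 5 of 7 were more than 2-fold higher, where 9.27% of all tested genes were. They were led by dpy-18, the other main alpha subunit, at a log2 ratio of 3.89, and pdi-2, the shared beta subunit, at 2.10. The collagens let-2 and emb-9 stood at 1.58 and 1.3465. In HBR2340 against N2, 1 gene was called, where 7.37% of all genes were. It was bli-3, whose product crosslinks the cuticle, at −0.50 ± 0.14 (edgeR adjusted p = 0.0423). This call ended in 10 of 21 alternatives, among them limma-voom (0.0603) and leaving out any HBR2340 library (0.0605 to 0.0944). PHX2193 against HBR2340, where 19.5% of all genes were called, had 2 higher and 1 lower. The higher ones were phy-4 at 1.75 ± 0.33 (0.00271) and bli-3 at 0.53 ± 0.14 (0.0158), and the lower one was emb-9, at −1.01 ± 0.32 (0.0417). The emb-9 call ended in 11 of 21 alternatives (0.0502 to 0.119), among them leaving out any HBR2340 or any PHX2193 library.

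EGL-9 and PHY-2 need iron, and glycolysis is a classical target of hypoxia signalling in mammals. Of 7 tested iron genes, N2 B held 2 at more than 2-fold higher, the transporter gene smf-1 at a log2 ratio of 3.56 and the aconitase gene aco-1 at 2.66, and 1 more than 2-fold lower, the ferritin gene ftn-1 at −1.12. Of all tested genes, 9.27% were more than 2-fold higher there and 17.7% lower. The lower count rested on N2 D: against N2 A and C alone it was 0 of 7, where 16.7% of all tested genes were. ftn-1 read 13.51, 11.92, 29.12 and 44.99 CPM in N2 A to D. Of the 7, 1 was called between strains, mfn-1, higher in PHX2193 than in HBR2340 by 0.44 ± 0.10 (edgeR adjusted p = 0.00970), where 19.5% of all genes were called. Of 19 glycolysis genes, 10 were more than 2-fold higher and 1 lower in N2 B, beside the same 9.27% and 17.7% of all tested genes, with ldh-1 at 3.48 and aldo-1 at 3.08. In HBR2340 against N2, 1 of the 19 was called higher and 1 lower, where 7.37% of all genes were called. In PHX2193 against HBR2340, 1 was higher and 2 lower, where 19.5% were called. hxk-1 fell by 1.16 ± 0.18 in HBR2340 against N2 (0.00197) and was 1.11 ± 0.18 higher in PHX2193 than in HBR2340 (8.20e-04). hxk-2, another hexokinase gene, moved by 0.41 ± 0.10 (0.0300) and −0.51 ± 0.10 (0.00395). The other lower gene in PHX2193 was pyk-1, at −0.57 ± 0.13 (0.00804). The first hxk-2 call ended in 6 of 21 alternatives, among them the 8 libraries alone (0.0814) and leaving out N2 D (0.0631) or HBR2340 B, C or D (0.0669 to 0.0847).

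N2 B was not high for hypoxia genes alone. Of 15 heat shock genes, 14 were more than 2-fold higher there, where 9.27% of all tested genes were. Their median log2 ratio was 2.52, and the small chaperone gene hsp-16.2 stood at 3.76. Of the same genes, 4 of 15 were called in PHX2193 against HBR2340, where 19.5% of all genes were, and all 4 were lower in PHX2193, among them hsp-70 at −2.999 ± 0.577 (edgeR adjusted p = 0.00346) and hsp-12.6 at −1.85 ± 0.36 (0.00350). Of 7 genes of the mitochondrial stress response, 0 were more than 2-fold higher. Among markers, 4 of 12 intestine genes were more than 2-fold lower in N2 B, where 17.7% of all tested genes were, and 4 of 12 again with N2 D left out of the mean. Of 11 embryo and oocyte genes, 7 were more than 2-fold lower in N2 B, but this count rested on N2 D: against N2 A and C alone it was 2 of 11, where 16.7% of all tested genes were. The embryo gene pos-1, for example, read 1.346, 0.341, 1.51 and 60.9 CPM in N2 A to D. Embryo and oocyte markers summed to 239 CPM in N2 B, the lowest N2 library, with up to 356 CPM in N2 and ranges of 290 to 331 CPM for HBR2340 and 227 to 308 CPM for PHX2193. This sum is mostly skn-1, at a mean log2 CPM of 7.76, with mex-3 next at 4.90. Intestine markers summed to 6698 CPM in N2 B, the highest of 4045 to 6698 CPM in N2, with 3172 to 5045 CPM for HBR2340 and 4876 to 5176 CPM for PHX2193. The genes asp-1 and ifb-2 weigh most in it, at a mean log2 CPM of 11.42 and 10.34. None of these markers was at 0 in all libraries, and the part of these in the height of the 8 genes was not tested.

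The genes closest to the joint profile of the 6 genes high in N2 B (egl-9, rhy-1, phy-2, nhr-57, cysl-2 and sqrd-1) were sought by the root mean square difference of centred log2 CPM, among 11848 genes. The profile comes from genes chosen for their height in N2 B, and each of the 6 is part of it. That genes high in N2 B lie near it over the 12 libraries, and hif-1 and vhl-1 far, follows from that choice. These distances are a description. Over the 12 libraries sdha-1, a succinate dehydrogenase gene, was the closest at 0.106, then the glycolysis gene aldo-1 at 0.121, the water channel gene aqp-7 at 0.140 and the enolase gene enol-1 at 0.141. A flat profile lay at 0.923, hif-1 at 0.828 and vhl-1 at 0.888, and a flat profile came to 0.331 once N2 B was left out. Over those 11 libraries M05D6.5 was closest at 0.0993, with sdha-1 at 0.106, cyn-16 at 0.118 and aldo-1 at 0.119, and sqrd-1 itself lay at 0.374. nhr-57 was the nearest of the 8 genes to the joint profile there, at 0.115, and phy-2 the farthest, at 0.602.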

How the data were processed

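The deposited values are whole-number read counts per gene made by the authors, not normalized, for 46934 WormBase identifiers in 12 libraries of L1 larvae. The aligner was Bowtie 0.12.2 and the builds named are WBcel235 and mm8, a mouse build, per the submitters' processing notes. What mm8 served for was not given in the sources used here, nor were the counting program, the strandedness or the treatment of reads with several matches. Names, positions and exonic lengths were taken from Ensembl's WBcel235 annotation (46924 identifiers matched).

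Tests on counts used edgeR 4.0.16 in R 4.3.3. filterByExpr (minimum count 10, minimum total 15) left 15908 genes and removed 31026. TMM factors and a robust quasi-likelihood fit with 1 term per strain were used on all 12 libraries (9 residual df, and a common BCV of 0.276). Tests are two-sided, with Benjamini-Hochberg adjustment over all genes tested. The standard error is the size of a log2 fold change divided by the square root of its F statistic. Log2 ratios of a library to the other 3 of its strain used log2 CPM with a prior count of 2, against the mean of log2 CPM. In CPM, 3 counts make 0.0823 to 0.170, which covers counting error only. The edgeR fit was tested on simulated counts with 1 spread for all genes and no library set apart as N2 B is. The other steps were not tested in this way. Alternatives were other scaling, filters, DESeq2 1.42.0, limma-voom (limma 3.58.1), fewer libraries and a replicate block. The libraries are biological replicates per the design text, and no 2 libraries of a strain were closer than a chi-square of 14.5 per df.

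The members, the gene lists and the removal of N2 B were chosen with earlier results of these data known. Outside the 8 genes, a list's named genes are up to 2 called genes with the smallest adjusted p in each comparison and the 2 with the largest N2 B ratio. The 10 most similar genes by root mean square difference, at a mean log2 CPM of at least 1, were also taken. Other names, and the values with N2 D left out, were chosen after the data were seen. No sequences are shown.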

Additional observations from a re-analysis of the deposited data

Results flagged for a closer look

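In a group of 4 libraries, 1 library was set apart where its gap to the nearest other, divided by the range of the group in log2 CPM, was above 0.829. Chance marks about 1 in 20 groups where these are not chosen by the outcome. Of 36 groups examined (the 8 genes with F22B5.4, ethe-1, cth-2 and cbs-1, in 3 strains), 8 were marked, and 6 of these are N2 B. For N2 B the ratio was 0.973 for phy-2, 0.937 for egl-9, 0.915 for F22B5.4, 0.913 for ethe-1, 0.878 for rhy-1 and 0.846 for nhr-57. For PHX2193 C it was 0.886 for phy-2 and 0.835 for F22B5.4. The 8 genes were brought together by N2 B, F22B5.4 was named for its ratio there and ethe-1 after its values were seen, so the chance rate does not apply to the N2 B values of these genes and they add nothing to that choice.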

How the results depend on the processing

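Leaving out N2 B is what turned most directions. The ranges of the log2 fold change over leaving out 1 library, with the value without N2 B as the upper end, were for HBR2340 against N2 −2.40 to 0.61 (egl-9), −0.37 to 0.0957 (rhy-1), −4.84 to 0.48 (phy-2), −0.53 to 0.49 (nhr-57), −1.1 to 0.33 (cysl-2) and −1.004 to 0.61 (sqrd-1). For PHX2193 against N2 they were −2.62 to 0.39 (egl-9), −0.42 to 0.0572 (rhy-1), −5.13 to 1.16 (phy-2), −0.90 to 0.14 (nhr-57) and −0.11 to 0.128 (hif-1). hif-1 there also turned to −0.0205 with DESeq2 size factors, −0.0197 with DESeq2 and −0.0002 with no filter, and nhr-57 in HBR2340 against N2 turned to 0.095 with limma-voom. In PHX2193 against HBR2340, rhy-1 ran from −0.14 to 0.0204 and phy-2 from −0.69 (without PHX2193 C) to 1.04. Without N2 B, ethe-1 in PHX2193 against N2 ran from −0.16 to 0.0158 and nhr-57 from −0.0202 (without PHX2193 C) to 0.228.

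Over all genes the calls numbered 1173 in HBR2340 against N2 (1800 with DESeq2, 627 with the 8 libraries alone, 661 to 2880 leaving out 1 library), 58 in PHX2193 against N2 (418, 3 and 7 to 228) and 3106 in PHX2193 against HBR2340 (5316 with the 8 libraries alone, 2237 to 5339 leaving out 1). Without N2 B they were 2880 (1690 to 3160 leaving out another library), 228 (41 to 369, and 703 with DESeq2) and 5339 (4472 to 5729). Of the 8 genes, leaving out 1 library gave 0 to 2 calls in HBR2340 against N2, 0 in PHX2193 against N2 and 0 to 2 in PHX2193 against HBR2340, where the 8 libraries alone gave 3. From the 11 libraries without N2 B it gave 0 to 3, 0 and 2 to 4, and upper quartile factors gave 1 in HBR2340 against N2. The cause of these shifts was not tested.

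The replicate letters do not pair the samples by the labels, and deviations of libraries with the same letter correlated at −0.183 to 0.661. With a replicate block PHX2193 against N2 had 24 calls, the other comparisons 1053 and 3063, and 0 of the 8 genes were called in any. Without N2 B the block called 3 of 8 in HBR2340 against N2, egl-9 (edgeR adjusted p = 0.0286) added, where it called 2983 of all genes. In PHX2193 against HBR2340 it called 3 of 8, nhr-57 added, and 5621 of all genes. Depth does not limit these genes, at 120 counts or more in every library.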
